A study of Mus musculus with 3 samples.

Results

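Imprinted genes are the subject here. The members are 35 genes of known parental expression, taken by symbol from the 47069 genes of a bulk RNA-seq table, and each was found there once. They comprise 20 genes expressed mainly from the paternal chromosome and 15 expressed mainly from the maternal one, by what is known of the mouse. The rule used no measured value of these libraries, but the list was drawn up with earlier results of these data known. The libraries came from the aorta-gonad-mesonephros region (AGM), the part of the mid-gestation embryo around the dorsal aorta where hematopoietic stem and progenitor cells emerge, at embryonic day 11 (E11), from a pooled litter of wild-type C57BL/6J mice. Once CD31-, CD45- and cKit-positive cells had been removed, 3 populations were sorted by NG2, the proteoglycan encoded by Cspg4, and the receptor PDGFRβ. Double-positive (DP) cells, labelled vascular smooth muscle cells, carried both. PDGFRβ-single (PDGFRβ-S) cells had the receptor but not NG2 and are labelled sub-vascular smooth muscle, and double-negative (DN) cells, labelled stroma, carried neither, although the study's text calls their PDGFRβ low or absent. Each population gave 1 library, so no difference below has a replicate check or a p-value, and all describe these libraries only.

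An imprinted gene is transcribed mainly from the copy inherited from 1 parent, because DNA methylation set in the egg or the sperm marks the copies differently. Imprinted genes lie in clusters in which a methylated control region acts on several genes at once, and many clusters hold a long noncoding RNA expressed from the opposite parental copy to its protein-coding neighbours. Many of them act on growth of the fetus and placenta: Igf2 and Dlk1 are paternally expressed growth and differentiation factors, and Cdkn1c and Grb10 are maternally expressed growth inhibitors. The reads do not tell the parental copies apart, since the litter was of an inbred strain, so every value below is the sum of both. Parental expression is restricted to certain tissues for some members (Ube3a to neurons, Gnas to a few tissues, Ppp1r9a to extraembryonic tissue, while Grb10 is paternal in neurons), and whether each was imprinted in these cells was not measured.

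Sequences of the start regions and of the small RNAs of the domains on which the results turn are shown first. RefSeq promoters on GRCm38.p6, from 250 bases before to 50 after a transcription start, were matched for 28 of the 35 members, with 40 promoters in all. Cdkn1c, H19, Impact, Nespas, Peg10, Rtl1 and Sgce were not matched. Capitals mark TGCCGC, the core motif bound at imprint control regions by the zinc-finger protein ZFP57 when methylated, or its reverse complement GCGGCA, searched on both strands as the only motif. The promoters of Dlk1 and Meg3, neighbours of opposite parental expression, of Kcnq1ot1, the noncoding RNA of the Cdkn1c cluster, and of Mest, the most abundant member, are given 5′ to 3′ along the gene.
Dlk1 promoter, chr12:109452573-109452872, plus strand: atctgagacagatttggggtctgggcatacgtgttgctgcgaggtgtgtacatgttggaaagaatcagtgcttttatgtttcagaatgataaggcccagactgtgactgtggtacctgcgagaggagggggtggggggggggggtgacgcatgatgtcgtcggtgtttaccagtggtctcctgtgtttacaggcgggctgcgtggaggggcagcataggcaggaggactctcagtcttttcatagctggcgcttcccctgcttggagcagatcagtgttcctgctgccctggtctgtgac
Meg3 promoter, chr12:109540746-109541045, plus strand: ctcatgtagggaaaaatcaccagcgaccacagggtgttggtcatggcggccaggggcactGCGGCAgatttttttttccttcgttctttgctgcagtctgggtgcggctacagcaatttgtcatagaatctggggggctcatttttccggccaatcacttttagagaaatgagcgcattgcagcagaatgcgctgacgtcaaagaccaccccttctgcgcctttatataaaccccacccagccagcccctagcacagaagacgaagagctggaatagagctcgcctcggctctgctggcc
Kcnq1ot1 promoter, chr7:143296498-143296797, minus strand: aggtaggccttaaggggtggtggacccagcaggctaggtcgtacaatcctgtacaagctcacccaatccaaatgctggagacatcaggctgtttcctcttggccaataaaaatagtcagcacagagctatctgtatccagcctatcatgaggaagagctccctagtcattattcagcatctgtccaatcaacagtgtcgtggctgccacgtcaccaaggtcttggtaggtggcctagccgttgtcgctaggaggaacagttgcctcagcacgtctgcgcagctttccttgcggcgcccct
Mest promoter, chr6:30737800-30738099, plus strand: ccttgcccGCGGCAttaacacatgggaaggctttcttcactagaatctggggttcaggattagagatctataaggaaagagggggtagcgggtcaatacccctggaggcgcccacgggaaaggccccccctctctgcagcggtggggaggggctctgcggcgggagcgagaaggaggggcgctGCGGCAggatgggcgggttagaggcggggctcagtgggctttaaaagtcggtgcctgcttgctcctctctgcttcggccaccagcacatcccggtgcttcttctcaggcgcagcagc
The Mest promoter printed held the motif at 2 places and the Meg3 promoter printed at 1, while those of Dlk1 and Kcnq1ot1 held none in this window. Another of the 3 Mest promoters and the other of the 2 Meg3 promoters held none. Of the 40 member promoters, 9 (22.5%) held it, beside 3813 of all 32851 promoters (11.6%). Windows of a gene can overlap, so that the Mest sites were counted again in a second window, and by gene 8 of the 28 members (28.6%) had the motif in any promoter, beside 3527 of 27025 genes (13.1%). The member promoters were also richer in CpG, the dinucleotide that is methylated, with a median of 12.5 per promoter beside 7 over all promoters. A match describes the letters only, since neither binding nor methylation was measured.

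Several members also carry microRNAs, which were read by their position inside the gene. RefSeq placed 54 mature microRNAs inside 7 members: 26 in Mirg, 6 in Rian, 3 in Meg3, 2 each in H19, Mest and Usp29, and 13 in Rtl1, of which 11 lie on the strand opposite to Rtl1. These 11 are made from the maternal chromosome and are known to target the paternal Rtl1 transcript to which they are complementary. The mature sequences, with the seed (bases 2 to 8) in capitals, are shown for the members on which the results turn.
mmu-miR-127-3p, opposite Rtl1: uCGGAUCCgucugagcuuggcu
mmu-miR-433-3p, opposite Rtl1: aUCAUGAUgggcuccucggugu
mmu-miR-431-5p, opposite Rtl1: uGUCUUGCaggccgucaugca
mmu-miR-370-3p, in Rian: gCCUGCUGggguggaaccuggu
mmu-miR-770-3p, in Meg3: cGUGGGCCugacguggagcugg
mmu-miR-410-3p, in Mirg: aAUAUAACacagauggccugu
mmu-miR-675-3p, in H19: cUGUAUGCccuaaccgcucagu
mmu-miR-335-5p, in Mest: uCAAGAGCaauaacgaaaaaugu
Each of these 8 has a seed of its own, and over all 54 there were 53 distinct seeds, with miR-453 and miR-496a-5p of Mirg sharing GGUUGCC. The libraries were made from polyadenylated RNA, so the mature forms were not measured. Of the microRNA genes whose exons overlap these members, most were listed at 0 in all 3 libraries. The exceptions were Mir433 opposite Rtl1 (1.64 TPM in DN and 3.50 in PDGFRβ-S), Mir127 opposite Rtl1 (2.90 TPM in DN alone) and Mir3072 in Mirg (2.45 TPM in DN and 5.23 in PDGFRβ-S), and reads there cannot be told apart from those of longer transcripts.

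Levels are in TPM, the share of reads per gene length scaled to the same total in every library, and 3 levels or ratios of a gene given in a row stand for DP, DN and PDGFRβ-S, in that order. The depth recovered on genes was about 9758157 reads (DP), 10534931 reads (DN) and 8672387 reads (PDGFRβ-S). Intervals in brackets are 95% exact Poisson (levels) or exact binomial (ratios) intervals and cover counting error only. The label of DP matched its markers: all 7 smooth muscle markers were at least 4-fold higher than in DN. Their sum was 7650 TPM in DP, 122 in DN and 246 in PDGFRβ-S. Cspg4 and Pdgfrb among the 7 encode the proteins used in the sort, so they are no separate check of the label. Markers of endothelium and blood excluded by the sort were low, at sums of 1.43 to 4.03 TPM over 6 endothelial and 1.72 to 2.88 TPM over 4 blood cell genes, with Ptprc and Cdh5 listed at 0 in all 3 libraries. The sum of 6 erythroid markers, however, was 1437 TPM in DP, 19065 in DN and 18827 in PDGFRβ-S. DN also carried 8 sympathetic neuron markers at a sum of 334 TPM (6.73 in DP, 2.16 in PDGFRβ-S), with Dbh and Th at 0 in both other libraries, and 6 skeletal muscle markers at a sum of 119 TPM (15.3 in DP, 12.2 in PDGFRβ-S). The mitochondrial share of TPM was 10.5% in DP, 24.4% in DN and 25.5% in PDGFRβ-S, that of ribosomal RNA 12.3%, 1.14% and 0.624%, and that of nuclear protein-coding genes 56.5%, 46.3% and 43.4%. A TPM ratio that involves DP also carries these differences, and their part in the results below was not tested.

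Together the 35 genes took 0.360% of all TPM in DP, 0.225% in DN and 0.186% in PDGFRβ-S, or 0.574%, 0.423% and 0.373% of the TPM of nuclear protein-coding genes. Paternally expressed members made up 52.3% of this sum in DP, 57.2% in DN and 58.0% in PDGFRβ-S. At 5 TPM or more stood 23 members in DP, 24 in DN and 24 in PDGFRβ-S. A few genes carried most of the sum. Mest, which encodes a hydrolase-like protein of mesoderm, led in every library. The next 4 were Asb4, Ndn, Cdkn1c and H19 in DP, Peg3, Copg2, Plagl1 and H19 in PDGFRβ-S, and Peg3, Grb10, H19 and Ndn in DN. This order rests on the deposited gene lengths: per merged exon length, in which overlapping exons count once, Mest stayed first, H19 took rank 2 in every library, Peg3 moved to rank 8 in PDGFRβ-S and 9 in DN, and Ndn to rank 9 in DP. At the other end Dio3, a deiodinase that inactivates thyroid hormone, had no read, which at the limit of 3 reads taken for a count of 0 allows up to 0.223 TPM in DP, 0.175 in DN and 0.187 in PDGFRβ-S. Ascl2, a transcription factor used chiefly in trophoblast, was listed at 0 in DP and PDGFRβ-S and at 0.287 TPM (0.0349 to 1.04) in DN, and Slc22a18, a transporter, lay between 0.408 and 0.763 TPM, each from a handful of reads.

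**Figure D1:**
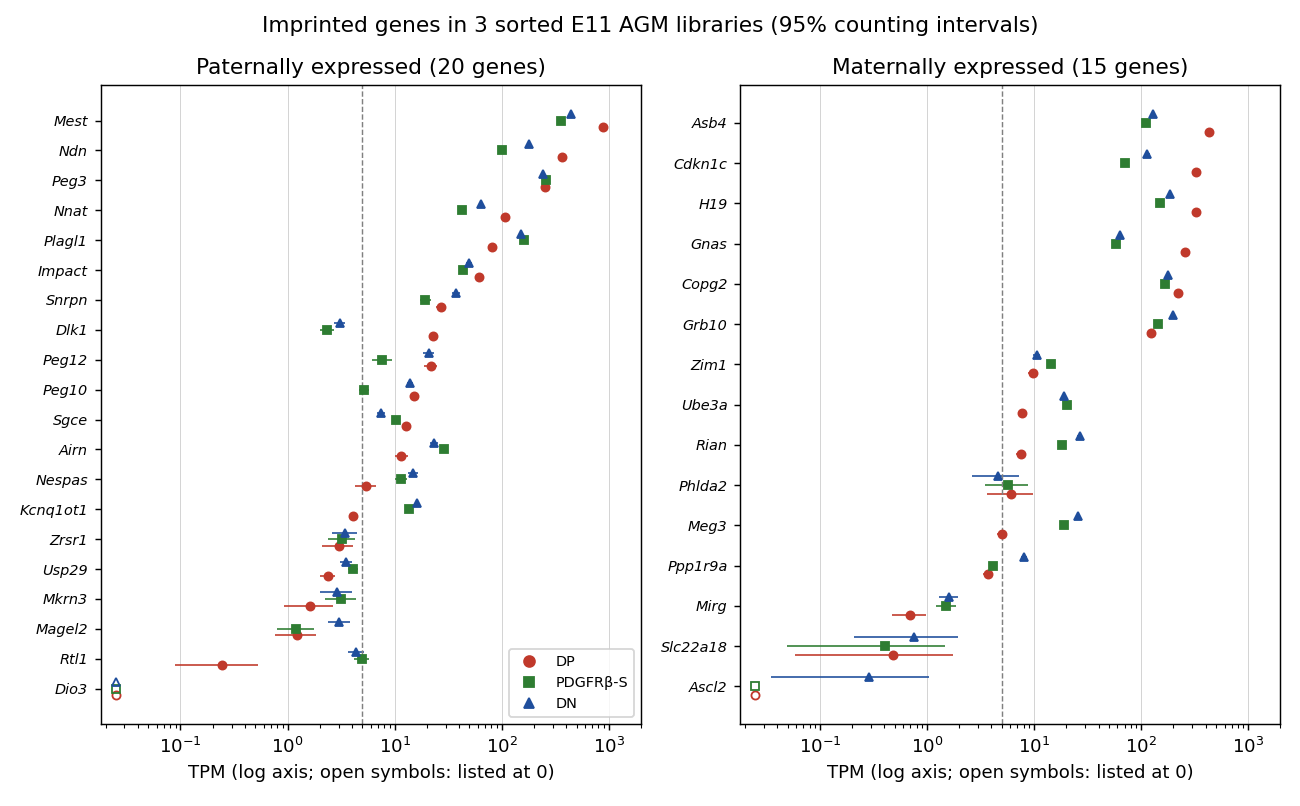
TPM of the 20 paternally and 15 maternally expressed genes on a log axis, with 1 point per library (circle DP, square PDGFRβ-S, triangle DN), bars for 95% counting intervals, open symbols at the left edge for genes listed at 0, and a dashed line at 5 TPM. Mest is the highest in all 3 libraries (889 TPM in DP, 446 in DN and 356 in PDGFRβ-S), Dlk1 is set apart in DP, and Meg3, Rian, Kcnq1ot1 and Rtl1 are lowest in DP.

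Most members were ordered beyond counting error. DP was highest for 14 of the 34 members with any read and lowest for 15; its interval lay clear of the next library for 11 of the former and 11 of the latter. PDGFRβ-S was highest for 8 (3 clear) and lowest for 16 (12 clear), and DN was highest for 12 (8 clear) and lowest for 3 (1 clear). DP therefore stood at an end of the order for most members, with about as many genes at the top as at the bottom. With 3 libraries only 1 place is not an end, so this is usual, and PDGFRβ-S stood at an end for most members too. Ascl2, listed at 0 in DP and PDGFRβ-S, was counted as lowest in PDGFRβ-S. These orders were not counted over all genes, so whether they are particular to imprinted genes was not tested. Of all genes that reached 5 TPM in PDGFRβ-S or DN, 10.9% were at least 2-fold lower in PDGFRβ-S and 2.23% higher.

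DP was compared with DN first, to set the cells labelled smooth muscle against those labelled stroma. The DN library also carried the neuron and skeletal muscle markers given above. A ratio is given as log2((TPM + 1)/(TPM + 1)), which understates changes of low genes, and a gene that reached 5 TPM in either of the libraries compared was counted as higher or lower at 2-fold or more on this scale. Of the 35 members, 26 reached 5 TPM and 9 did not. Among the 26, 5 were higher in DP (Dlk1, Gnas, Asb4, Cdkn1c and Ndn, 19.2%) and 5 were lower (Meg3, Kcnq1ot1, Rian, Nespas and Ube3a, 19.2%). Over all 11287 genes at that level, 16.9% were higher and 19.1% lower, so neither share stood far from the background. In bulk libraries fewer expressing cells and less RNA per cell cannot be told apart. The median log2 ratio of the members was 0.09, beside -0.03 over all genes. At 4-fold, Dlk1 alone was higher and Meg3 alone was lower, beside 4.49% and 5.63% of all genes. Gnas, at a log2 ratio just under 2.00, lay immediately below that limit, and at the 2-fold limit Ndn (1.02) was the nearest inside and Mest (0.99) the nearest outside. Rescaling to nuclear protein-coding genes moved the median of all genes from -0.03 to -0.34 and the share of higher among all genes past 2-fold from 46.9% to 30.2%. The members moved likewise under it, to 4 higher and 8 lower with a median of -0.18. The gene lost from the higher ones was Ndn, whose log2 ratio of 1.02 became 0.73 with this rescaling, 0.96 with median ratio scaling, 0.69 with quantile normalization and 0.98 per merged exon length.

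Either parental group of members held genes that were higher and genes that were lower. Of the 14 paternally expressed members at 5 TPM, 2 were higher in DP (Dlk1 and Ndn) and 2 lower (Kcnq1ot1 and Nespas), with a median log2 ratio of 0.09, and Dlk1 was the 1 higher gene left under the alternatives just named. Of the 12 maternally expressed members, 3 were higher (Asb4, Cdkn1c and Gnas) and 3 lower (Meg3, Rian and Ube3a), with a median of 0.10. Kind of transcript divided them more. Among protein-coding members, 5 of 20 were higher and 1 lower (median 0.30), beside 18.2% higher and 12.95% lower of all 9387 nuclear protein-coding genes. Among noncoding members, none of 6 was higher and 4 were lower (median -1.50), beside 13.2% and 38.8% of 755 long noncoding RNA genes, whose own median was -0.60. The lower level of noncoding members in DP was thus in the direction of long noncoding RNA genes at large. Of the 4 lower ones, Meg3 and Rian lie in the same cluster and are not separate observations. The sum over all noncoding members, most of it H19, was 356 TPM in DP, 294 in DN and 241 in PDGFRβ-S. Summed without H19, they were at 34.2 TPM in DP, 108 in DN and 92.5 in PDGFRβ-S. Noncoding RNAs that are no members differed in size: Malat1, a nuclear RNA, was lowest in DP by a small margin, at 752, 893 and 872 TPM, while Xist, the RNA that coats the inactive X chromosome, was at 14.8, 101 and 93.8 TPM. The share of cells with an inactive X chromosome in each library was not measured.

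**Figure D2:**
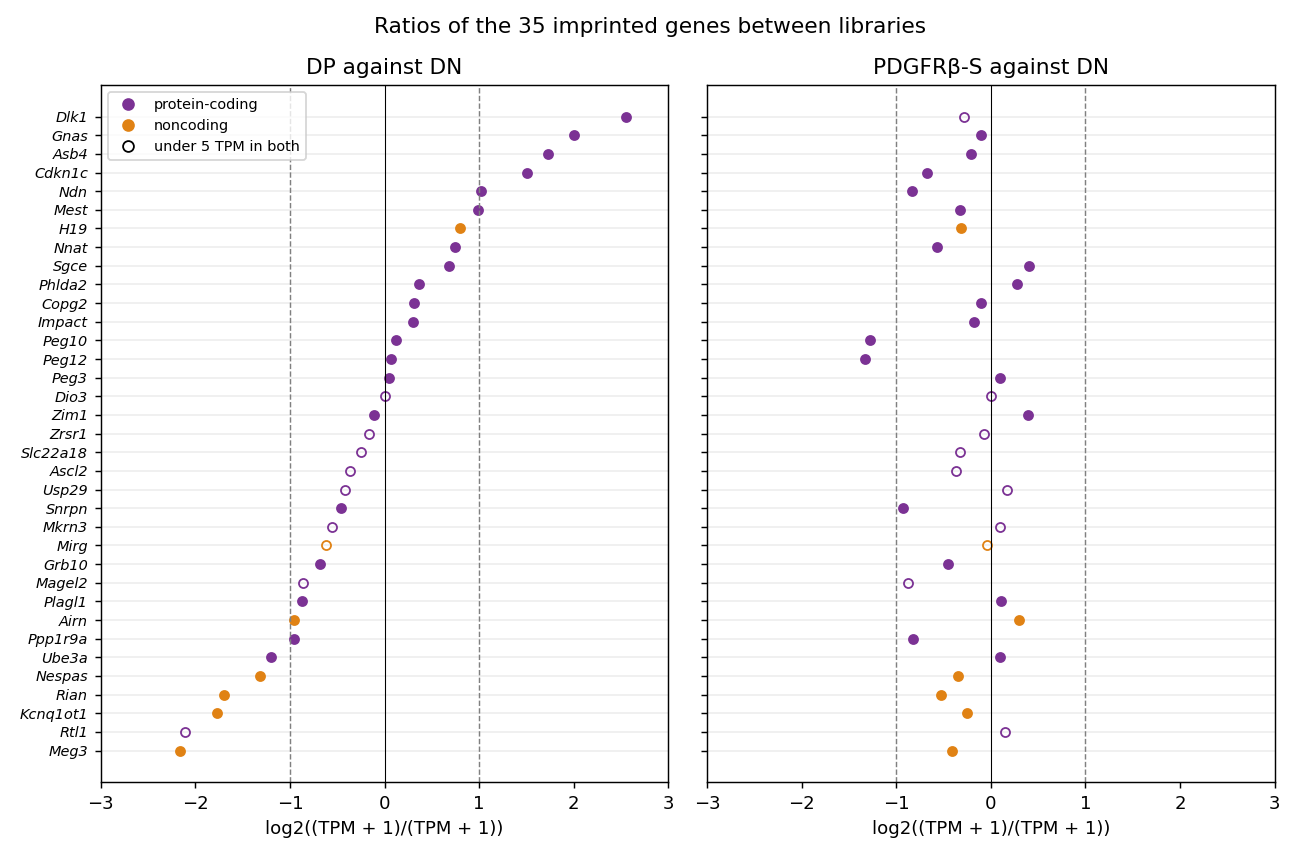
Log2((TPM + 1)/(TPM + 1)) of each of the 35 genes for DP against DN (left) and PDGFRβ-S against DN (right), in the order of the left panel, with dashed lines at 2-fold; open circles mark genes under 5 TPM in both libraries. At the left the orange noncoding genes Meg3, Kcnq1ot1, Rian and Nespas lie beyond the lower line. So do the purple protein-coding genes Ube3a (-1.20) and Rtl1 (-2.11, open circle). Purple protein-coding genes from Dlk1 (2.55) to Ndn (1.02) lie beyond the upper line. At the right Peg10 and Peg12 alone lie beyond a line.

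**Figure D3:**
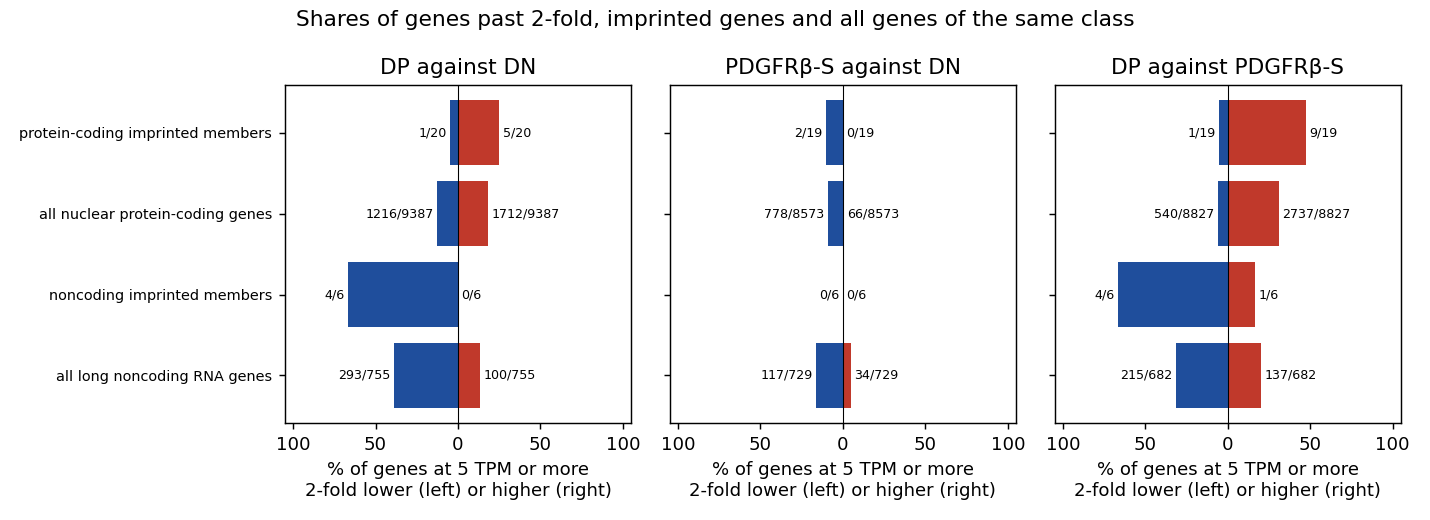
Share of genes at 5 TPM or more that were at least 2-fold higher (red, right) or lower (blue, left) in each comparison, for protein-coding and noncoding imprinted genes and for all genes of the same class, with counts beside the bars. For DP against DN, 4 of 6 noncoding members were lower beside 293 of 755 long noncoding RNA genes. Of these members, Meg3 and Rian lie in the same cluster. Among protein-coding members, 5 of 20 were higher beside 1712 of 9387 genes.

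The Dlk1-Dio3 cluster on chromosome 12 showed the widest divergence. Dlk1, a membrane protein related to Notch ligands that holds precursor cells undifferentiated (chromosome 12, mm10 positions 109452823 to 109463336), stood at 22.8 TPM in DP (21.7 to 24.0), 3.07 in DN (2.71 to 3.47) and 2.34 in PDGFRβ-S (2.01 to 2.70). Its DP level was 7.42-fold that of DN (6.49 to 8.51) and 9.75-fold that of PDGFRβ-S (8.35 to 11.4). Meg3, the maternal noncoding RNA that begins downstream of Dlk1 (109541001 to 109571726), was instead lowest in DP, with 4.97 TPM there (4.54 to 5.43), 25.7 in DN (24.8 to 26.6) and 19.1 in PDGFRβ-S (18.3 to 19.9). It was 5.17-fold lower in DP than in DN (4.70 to 5.70). Rian, the next noncoding RNA of the same strand and host of small nucleolar RNAs, followed Meg3, at 7.54, 26.6 and 18.1 TPM, a 3.53-fold lower level in DP than in DN (3.13 to 3.98). Mirg, the microRNA host at the end of the cluster, was at 0.690, 1.59 and 1.52 TPM, with DP again the lowest. These 3 maternal noncoding RNAs thus shared 1 order, DN above PDGFRβ-S above DP, although the upper pair of Mirg levels overlapped in their intervals. They lie one after another on the same strand of 1 cluster and are not separate observations. The counts by gene above nonetheless hold Meg3 and Rian each. Rtl1, a retrotransposon-derived protein needed in the fetal capillaries of the placenta and expressed from the paternal copy like Dlk1, was not high with Dlk1. It was at 0.244 TPM in DP (0.0895 to 0.531), 4.38 in DN (3.67 to 5.17) and 4.95 in PDGFRβ-S (4.17 to 5.82), which is 20.3-fold lower in DP than in PDGFRβ-S (9.09 to 56.2) and 17.9-fold lower than in DN (8.03 to 49.7), yet below 5 TPM throughout and so outside the counts above. The reads carry no strand, so reads of Rtl1 and of the antisense precursor that gives miR-127, miR-433 and miR-431 (shown above) cannot be told apart. Within Meg3 the gene Gm26906, on the opposite strand with 1228 shared exon bases, was at 51.4, 232 and 212 TPM and may hold the same reads.

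The Kcnq1 cluster on chromosome 7 was divided in a like manner. Cdkn1c encodes p57, an inhibitor of cyclin-dependent kinases expressed from the maternal copy (143458350 to 143461050). It was at 325 TPM in DP (314 to 336), 114 in DN (109 to 120) and 70.9 in PDGFRβ-S (66.4 to 75.6), so that DP was 2.85-fold above DN (2.68 to 3.02) and 4.59-fold above PDGFRβ-S (4.26 to 4.94). Kcnq1ot1, the paternal noncoding RNA that silences the cluster in cis (143212155 to 143296549), was lowest in DP, at 4.09 TPM (3.88 to 4.32) beside 16.3 in DN (15.9 to 16.7) and 13.6 in PDGFRβ-S (13.2 to 13.9), 3.99-fold below DN (3.76 to 4.23). Phlda2, a growth inhibitor of the placenta from the same cluster, was at 6.15, 4.56 and 5.73 TPM, and its intervals overlapped in all libraries. The exons of Cdkn1c share 625 bases with an antisense gene, and no strand information separates them.

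At the Gnas locus on chromosome 2 the pattern was the same. Gnas, which encodes the stimulatory G-protein alpha subunit and other proteins from alternative first exons (174284320 to 174346744), was at 254 TPM in DP (250 to 258), 62.8 in DN (61.0 to 64.6) and 58.6 in PDGFRβ-S (56.8 to 60.4), 4.05-fold higher in DP than in DN (3.92 to 4.18). Its gene-level value adds transcripts of maternal, paternal and biparental expression. Nespas, the paternal antisense RNA, was at 5.38 TPM in DP (4.31 to 6.65), 14.8 in DN (13.2 to 16.6) and 11.5 in PDGFRβ-S (9.98 to 13.1), 2.76-fold lower in DP than in DN (2.16 to 3.55). The Nespas value may include Gnas reads, since 988 bases, 31.4% of the Nespas exons, are shared with Gnas on the other strand. Gm20721, opposite to Gnas over 1469 shared bases, was listed at 2968, 771 and 688 TPM, an order that follows Gnas.

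Airn, the paternal antisense RNA of the Igf2r locus on chromosome 17, was likewise lowest in DP, at 11.5 TPM (10.04 to 13.2) beside 23.3 in DN (21.4 to 25.4) and 28.8 in PDGFRβ-S (26.6 to 31.2). It was 2.02-fold lower in DP than in DN in TPM (1.72 to 2.38) and, at a log2 ratio of -0.96, just inside the 2-fold limit. Igf2r, the receptor that clears IGF2 and is silenced by Airn on the paternal copy, is no member but lies opposite to it, and stood at 51.7, 14.6 and 9.52 TPM.

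H19 departed from the other noncoding members. The maternal RNA H19 (chromosome 7, 142575529 to 142578143) was highest in DP, at 322 TPM (315 to 330), beside 186 in DN (181 to 191) and 148 in PDGFRβ-S (144 to 153), 1.74-fold above DN (1.67 to 1.80) and 2.17-fold above PDGFRβ-S (2.09 to 2.26). Igf2, the fetal growth factor that shares its enhancers and is paternally expressed, is no member. It was at 180 TPM in DP (176 to 184), 55.2 in DN (53.4 to 57.0) and 67.2 in PDGFRβ-S (65.2 to 69.3), so both partners were highest in DP.

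Ratios of cluster partners within a library do not depend on how libraries are scaled against each other, so 9 such pairs were set side by side. The ratio itself depends on the lengths taken for both genes, while the fold between libraries does not. Dlk1 was 4.59 times Meg3 in DP, 0.120 times in DN and 0.123 times in PDGFRβ-S, a 38.4-fold difference between DP and DN. Cdkn1c was 79.4 times Kcnq1ot1 in DP, 6.99 times in DN and 5.23 times in PDGFRβ-S, 11.4-fold apart between DP and DN. For Gnas and Nespas the ratios were 47.2, 4.23 and 5.12. For Igf2r and Airn, 4.48 in DP stood beside 0.628 in DN and 0.330 in PDGFRβ-S. Ndn to Ube3a stood at 47.5, 9.48 and 4.95. In these 5 pairs the first gene gained on its partner in DP by more than 2-fold against either other library. Except in Ndn to Ube3a, the partner is a noncoding RNA. Long noncoding RNA genes at large also lay lower in DP than in DN (median log2 ratio -0.60), while nuclear protein-coding genes did not (0.08). The part of this shift between classes in the pair ratios was not tested. The remaining 4 pairs moved by less than 2-fold between DP and DN: Igf2 to H19 (0.558 and 0.297), Mest to Copg2 (4.00 and 2.49), Peg3 to Zim1 (25.8 and 23.0) and Peg10 to Sgce (1.21 and 1.86). Between PDGFRβ-S and DN only the Peg10 to Sgce ratio differed by more than 2-fold among the 9, at 0.504 beside 1.86. Per merged exon length the DP ratio was 9.68 for Dlk1 to Meg3, 121 for Cdkn1c to Kcnq1ot1, 15.3 for Ndn to Ube3a, 7.25 for Peg3 to Zim1 and 1.90 for Peg10 to Sgce, each over 1.5 times from the value above, and the other 4 moved by less. The pairs were set up with the levels already known and serve as a description.

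**Figure D4:**
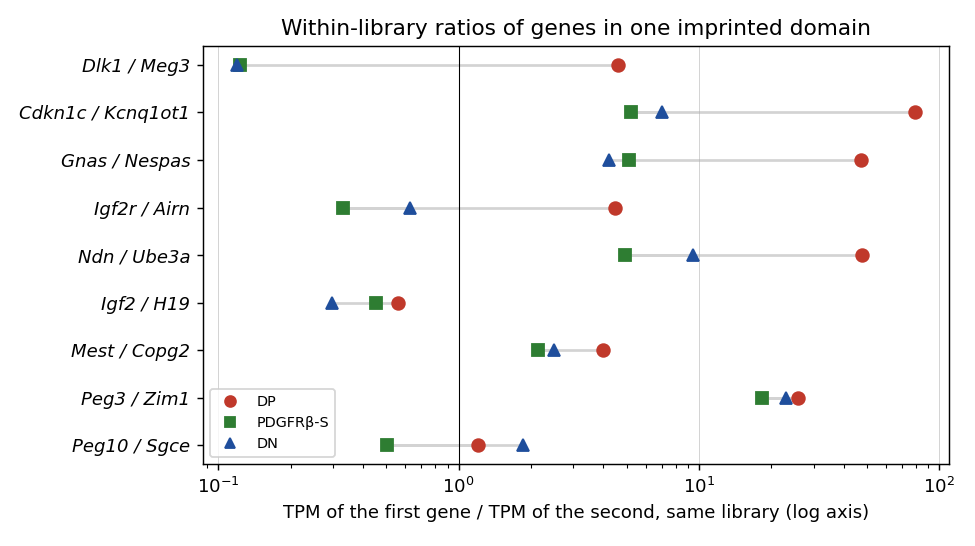
TPM of 1 gene divided by the TPM of its partner in the same imprinted cluster, in the same library, on a log axis for 9 pairs (circle DP, square PDGFRβ-S, triangle DN). In the upper 5 pairs DP lies far to the right of the other libraries (Dlk1 to Meg3 4.59 beside 0.120 in DN and 0.123 in PDGFRβ-S), and in the lower 4 the DP and DN points lie within 2-fold of each other.

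Genes of growth and signalling outside these clusters also differed. Asb4, which encodes a subunit of a ubiquitin ligase and is maternally expressed (chromosome 6, 5383386 to 5433022), was at 430 TPM in DP (420 to 440), 129 in DN (124 to 134) and 112 in PDGFRβ-S. DP was 3.32-fold above DN (3.18 to 3.48), and PDGFRβ-S and DN lay close together. Mest, the paternal gene whose promoter is shown above, was at 889 TPM in DP (878 to 900), 446 in DN (439 to 453) and 356 in PDGFRβ-S (349 to 362), a 1.99-fold higher level in DP than in DN (1.95 to 2.03). Copg2, a coatomer subunit gene that ends against Mest, was at 222, 179 and 166 TPM, of which a part may be Mest reads, since the pair share 912 exon bases on opposite strands. Nnat, a small membrane proteolipid, was at 108 TPM in DP (104 to 112), 64.0 in DN (61.4 to 66.7) and 42.7 in PDGFRβ-S.

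Other growth regulators were mostly flat or lower in DP. Grb10, an adaptor that restrains insulin and growth factor receptors, was at 123 TPM in DP (119 to 126), 197 in DN (194 to 201) and 143 in PDGFRβ-S (140 to 147). Plagl1, a zinc-finger factor that halts the cell cycle, was at 81.6 TPM in DP (79.4 to 83.9), 150 in DN (147 to 153) and 161 in PDGFRβ-S (158 to 164). The inhibitors therefore did not share an order, since Cdkn1c was highest in DP while Plagl1 and Grb10 were lowest there. Peg3, a large zinc-finger protein, was at 251, 244 and 261 TPM and changed the least of the abundant members, with a log2 ratio of DP to DN of 0.04 that turned negative under each rescaling. Zim1, its maternal neighbour, was at 9.75, 10.6 and 14.2 TPM, and Usp29, a ubiquitin protease gene that starts beside Peg3, at 2.37, 3.52 and 4.10. Impact, a regulator of translation under starvation, was instead highest in DP, at 61.1, 49.5 and 43.7 TPM, 1.23-fold above DN (1.12 to 1.36). The spliceosome-related Zrsr1 was near 3 TPM in each library, between 2.99 and 3.46, with overlapping intervals.

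The Prader-Willi/Angelman domain on chromosome 7 was mixed. Ndn, a MAGE-family protein of neurons and mesenchyme, was at 365 TPM in DP (351 to 380), 180 in DN (170 to 189) and 100.3 in PDGFRβ-S (93.3 to 108), 2.03-fold higher in DP than in DN (1.91 to 2.17) and 3.64-fold higher than in PDGFRβ-S (3.35 to 3.96). Ube3a, a ubiquitin ligase, was at 7.70 TPM in DP (7.19 to 8.23), 18.9 in DN (18.2 to 19.7) and 20.3 in PDGFRβ-S (19.5 to 21.1), 2.46-fold lower in DP than in DN (2.28 to 2.66). It was the only protein-coding member past 2-fold lower in DP among the 20 tested, and its exons share 1803 bases with Snhg14, the long antisense RNA of the domain, which was itself at 1.71, 6.28 and 5.33 TPM. Snrpn, a core splicing protein, was at 27.0, 37.7 and 19.4 TPM, and the small paternal genes Mkrn3 (1.62, 2.87 and 3.15) and Magel2 (1.22, 3.05 and 1.21), a ubiquitin ligase gene and a regulator of one, stayed under 5 TPM.

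PDGFRβ-S was then compared with DN, which share the absence of NG2. The imprinted genes differed little: of 25 members at 5 TPM, none was higher by 2-fold and 2 were lower (8%), beside 2.23% and 10.9% of 10526 genes. The median log2 ratio was -0.32, beside -0.31 over all genes. None passed 4-fold in either direction, beside 0.675% higher and 2.71% lower of all genes. Both lower genes were paternal. Peg10, a retrotransposon-derived gene needed in placenta, was at 15.3 TPM in DP (14.2 to 16.4), 13.9 in DN and 5.16 in PDGFRβ-S (4.61 to 5.77), 2.70-fold lower than in DN (2.37 to 3.07). Peg12, a relative of the Wnt regulator Frat, was at 21.7 TPM in DP (18.97 to 24.8), 20.8 in DN (18.4 to 23.4) and 7.64 in PDGFRβ-S (6.17 to 9.36), 2.72-fold lower (2.14 to 3.48). In both genes DP and DN overlapped in their intervals and PDGFRβ-S stood alone below them. Sgce, the sarcoglycan gene that starts beside Peg10, had another order, with 12.7, 7.49 and 10.2 TPM. Ppp1r9a, a synaptic actin-binding protein, was at 3.69, 8.10 and 4.12 TPM, and was 1 of the 12 members highest in DN. The sympathetic neuron markers (334 TPM beside 6.73 in DP and 2.16 in PDGFRβ-S) and the skeletal muscle markers were also highest in DN. The part of neurons or muscle in these levels was not tested. The median of all genes in this comparison moved from -0.31 to -0.12 with median ratio scaling and to 0.01 with quantile normalization, and the share of higher among genes past 2-fold from 17.0% to 29.9% and 49.0%.

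Against PDGFRβ-S, the other population that carried PDGFRβ, DP showed the most differences. This comparison shares its libraries with the previous ones and is no independent repeat of them. Of 25 members at 5 TPM, 10 were higher in DP (40%) and 5 lower (20%), beside 28.3% and 12.5% of 10551 genes, and the median log2 ratio was 0.42 beside 0.32 over all genes. At 4-fold, 3 were higher (Dlk1, Cdkn1c and Gnas) and none lower, beside 8.8% and 3.69%. The 10 were Asb4, Cdkn1c, Dlk1, Gnas, H19, Mest, Ndn, Nnat, Peg10 and Peg12, and the 5 lower genes were Airn, Kcnq1ot1, Meg3, Rian and Ube3a. Of these, 5 (Dlk1, Cdkn1c, Ndn, Gnas and Asb4) were at least 2-fold higher in DP than in both other libraries and 4 (Meg3, Rian, Kcnq1ot1 and Ube3a) at least 2-fold lower than in both. The share of all genes that met the 2-fold limit against both libraries was not counted, so neither count has a background beside it. For Ndn the call against DN was lost under the alternatives given above. Scaling changed the background here, with the median of all genes at -0.11 after rescaling to nuclear protein-coding genes, 0.04 with median ratio scaling and -0.06 with quantile normalization, and the share of higher among genes past 2-fold falling from 69.3% to 47.3%, 54.9% and 50.9%.

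Imprinted genes beyond the members, 39 on a list, were looked up for context. For DP against DN, 10 of 24 at 5 TPM were higher (41.7%) and 2 lower (8.33%), with a median of 0.62, beside 16.9% and 19.1% of all genes. Those listed as maternally expressed held 8 of 17 higher and none lower (median 0.88). Those listed as paternally expressed held 2 of 7 higher and 2 lower (median -0.54), a split that the members did not show. Whether the listed genes were imprinted in these cells was not measured, so the split is not read as an effect of parental origin. For PDGFRβ-S against DN 1 of 20 was higher (5%) and 3 lower (15%), beside 2.23% and 10.9% of all genes. Klf14, a maternally expressed transcription factor, stood at 19.7, 0.997 and 2.41 TPM. Dcn, which encodes the matrix proteoglycan decorin and is imprinted in placenta, was at 388, 95.3 and 200.4 TPM. Slc38a4, an amino acid transporter of paternal expression, was at 173, 53.0 and 40.0 TPM. In the other direction Zdbf2 was at 3.40, 16.1 and 5.02 TPM. Gatm, a creatine synthesis enzyme, was at 7.76, 11.2 and 1.28 TPM. Ddc, which makes dopamine and serotonin, was at 7.19, 9.82 and 4.37 TPM. Tssc4, at 17.1, 12.3 and 5.95 TPM, was lower than in DN in PDGFRβ-S but higher in DP. Mcts2 (53.0, 77.5 and 104 TPM), Commd1 (15.2, 13.7 and 16.6) and Ago2, an Argonaute protein (10.7, 15.8 and 11.9), lay within 2-fold of DN in both comparisons. Among 15 genes that set, keep or erase imprints, 1 of 10 at 5 TPM was higher in DP than in DN, Uhrf1, the partner of the maintenance methyltransferase (47.9, 23.4 and 14.9 TPM), and 1 lower (10% each, beside 16.9% and 19.1% of all genes), Tet3, a methylcytosine dioxygenase (3.33, 8.13 and 4.98 TPM). Zfp57, whose motif is marked in the promoters above, was at 10.4, 15.3 and 9.09 TPM. Zfp445, a zinc-finger protein with a like role, was nearly level at 21.1, 21.2 and 20.4 TPM. Also within 2-fold of DN were Trim28, the corepressor both recruit (99.2, 73.0 and 43.9 TPM), the methyltransferases Dnmt1 (42.4, 27.4 and 19.9) and Dnmt3a (9.83, 7.21 and 6.07), and the chromatin protein Smchd1 (10.7, 17.7 and 12.0).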

How the data were processed

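Bulk RNA-seq of 3 sorted populations was used, with 1 library each. Full-length cDNA of polyadenylated RNA was sequenced as short single reads without strand information or molecular identifiers. The submitters' notes name TopHat2 2.0.10 as the aligner and mm10 as the genome. The authors deposited TPM for 47069 Ensembl genes; the study's methods name Cufflinks for TPM of RefSeq transcripts and summarizeOverlaps in union mode, on GENCODE M19, for raw read counts, without saying which made this table. At the summed length of all distinct exons in GENCODE M21, overlapping exons counted repeatedly, 65.8% of 9424 genes with 50 to 5000 reads gave whole reads in all 3 libraries (tolerance 0.01 read; 8.16% at merged exon length; 0.0106% with constants shifted by 3%). Genes with many isoforms are therefore understated against others by up to 3.93-fold among the 17 members at that length. The length of a gene cancels in its ratio between libraries. A change of length for all genes still rescales each library: per merged exon length the median log2 ratio of all genes for DP against DN moved from -0.03 to -0.07. For 4 members the gene span and for 13 the shortest length giving whole reads was used, so their reads are minimum estimates. Features inside others, such as a microRNA gene within Nnat, carry reads, so overlapping genes may share them. A second sheet with 4 unmapped columns was not used.

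Ratios used a pseudocount of 1 TPM, a minimum of 5 TPM in the higher of both libraries and limits of 2-fold and 4-fold. No test was made. All members are named, with overlapping or neighbouring partners. Of the other imprinted genes, by parent, and the imprint maintenance genes, those with the 2 highest and 2 lowest ratios against DN are named for either comparison. Members and lists were chosen with earlier results of these data known. Alternatives were pseudocounts of 0.1 and 5 TPM, no filter or 20 TPM, 3 scalings and, chosen after seeing the data, merged exon length. Python 3.11.15 with pandas 2.3.3, numpy 2.4.6 and scipy 1.17.1 was used, with read recovery tested on simulated data.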

Additional observations from a re-analysis of the deposited data

How the results depend on the processing

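No paired analysis was possible because each population had 1 library. The counts of members at least 2-fold higher in DP or in PDGFRβ-S stayed within 1.5 times of those reported under every alternative run; the counts of lower members did not. For DP against DN, 5 lower members became 3 with a pseudocount of 5 TPM, 2 with at least 20 TPM and 8 when TPM were rescaled to the sum of nuclear protein-coding genes. For PDGFRβ-S against DN, 2 became 1 with a pseudocount of 5 TPM, with at least 20 TPM and with quantile normalization. For DP against PDGFRβ-S, 5 became 3 with a pseudocount of 5 TPM and 2 with at least 20 TPM, and 8 with rescaling, with median ratio scaling and with quantile normalization. A higher limit on level leaves fewer genes, and a larger pseudocount shrinks the ratios of low ones, which include most noncoding members. No member past 2-fold changed direction under any alternative. Of 102 ratios, 8 changed sign with rescaling, 8 with median ratio scaling, 13 with quantile normalization and 1 with merged exon length, all small. The 1 library per population limits every comparison, and members under 1 TPM rest on few reads.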
